A study of Mus musculus with 3 samples.

Results

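Trbv14 cells are CD8 T cells, taken from melanomas of mice given Pmel-1 T cells, in which at least 1 RNA molecule of the T cell receptor beta segment Trbv14 was counted. The members were chosen by measured values: a barcode was taken when it held at least 1500 UMIs (unique molecular identifiers, each standing for a captured RNA molecule), under 10% mitochondrial UMIs, at least 1 UMI of Cd3d, Cd3e or Cd3g, at least 1 of Cd8a or Cd8b1, at least 1 of Trbv14 and none of the macrophage receptor gene Csf1r. The rule found 315 cells among 10243 barcodes, 54 at day 3, 149 at day 7 and 112 at day 14. They were set against 90 CD8 T cells that passed the same gate with no Trbv14 UMI but at least 1 UMI of another Trbv segment (other-Trbv cells), 32 at day 3, 36 at day 7 and 22 at day 14.

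The data are single-cell RNA libraries, made with a droplet kit that reads the 3' ends of transcripts, of CD45+ cells from subcutaneous B16F10 tumours, a melanoma line of C57BL/6 origin, in C57BL/6 mice. Gp100-specific Pmel-1 cytotoxic T cells, activated in culture, were injected intravenously on day 9 of tumour growth, and tumours were taken 3, 7 and 14 days after that injection. The labels give no age or sex of the mice, and name both a cell sorter and magnetic beads for the isolation of CD45+ cells. Each day is 1 library in which equal numbers of cells of 3 mice were pooled. No tumour without transferred cells is analysed here, so the day after transfer, the age of the tumour and the library cannot be told apart, and differences between days carry no test.

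The libraries of days 3, 7 and 14 held 3656, 3038 and 3549 barcodes with 33096709, 29547433 and 35742070 UMIs. The Trbv14 cells contributed 1432045, 3386841 and 3240966 of these UMIs and the other-Trbv cells 804355, 793271 and 353459. The median Trbv14 cell held 20582, 18321 and 25284 UMIs in day order, and the median other-Trbv cell 23543, 19307 and 7951. Of the members, 12 of 54 at day 3, 35 of 149 at day 7 and 18 of 112 at day 14 carried a barcode that also occurs in another library. These cells were deep, with a median of 48412, 38065 and 50819 UMIs, compared with 18236.5, 15334.5 and 23848.5 for the unshared members. The same barcode in the other library had a median of 685, 822 and 660.5 UMIs, and no shared barcode was a member in more than 1 library. What the sharing does to a result was not tested beyond the values without these cells that are given beside it. All intervals given are 95% intervals and cover counting error only.

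An alpha-beta T cell recognises peptides on MHC molecules through a receptor made of an alpha and a beta chain. Each beta chain joins 1 of many variable segments (Trbv) to 1 of a pair of nearly identical constant segments (Trbc1 or Trbc2), and a T cell normally keeps the choice for life, so a segment can mark the descendants of a cell. Pmel-1 mice carry a rearranged receptor for a peptide of gp100 (the product of the gene Pmel), whose beta chain uses Trbv14. The variable segment lies at the 5' end of the transcript and the constant segment at its 3' end, so that 3' reads cover the constant segment in most T cells and the variable segment in few of them. Host T cells can also use Trbv14, and Trbv14 RNA by itself does not tell them from transferred cells.

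The segments that carry the comparison lie on mouse chromosome 6, plus strand, build mm10, and their sequences are given 5' to 3' from that genome with the GENCODE M21 annotation. Trbv14 defines the members. Trbv13-1 is shown because it was the second segment in most of the members that held one. The main coding exon of Trbv14 (exon 2, chr6:41135320-41135616) and that of Trbv13-1 (exon 2, chr6:41116178-41116468) have as their longest shared run 14 bases near the 3' end, in capitals.
Trbv14: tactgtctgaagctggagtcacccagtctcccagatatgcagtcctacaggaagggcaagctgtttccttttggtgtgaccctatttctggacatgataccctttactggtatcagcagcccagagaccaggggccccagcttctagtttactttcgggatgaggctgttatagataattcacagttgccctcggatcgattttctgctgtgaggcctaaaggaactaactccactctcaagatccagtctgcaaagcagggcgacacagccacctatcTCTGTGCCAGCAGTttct
Trbv13-1: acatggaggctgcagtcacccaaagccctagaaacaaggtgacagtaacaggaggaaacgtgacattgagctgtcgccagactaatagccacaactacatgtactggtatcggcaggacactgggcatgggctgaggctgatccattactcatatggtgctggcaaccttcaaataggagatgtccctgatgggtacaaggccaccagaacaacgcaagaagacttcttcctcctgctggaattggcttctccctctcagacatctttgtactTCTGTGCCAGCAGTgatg
The constant genes are shown because nearly all receptor beta UMIs come from them. The coding exons 2 to 4 of Trbc2 (joined, within chr6:41547610-41548178) and of Trbc1 (joined, within chr6:41539114-41539662) are each 143 bases long, and the 22 bases that differ between them are in capitals.
Trbc2: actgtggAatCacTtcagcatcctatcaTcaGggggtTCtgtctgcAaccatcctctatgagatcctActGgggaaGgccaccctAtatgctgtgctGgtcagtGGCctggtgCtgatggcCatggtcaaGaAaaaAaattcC
Trbc1: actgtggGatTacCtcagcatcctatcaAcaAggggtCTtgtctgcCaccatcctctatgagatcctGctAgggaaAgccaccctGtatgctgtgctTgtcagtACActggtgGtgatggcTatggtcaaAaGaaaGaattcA
Over the whole coding sequence of 518 bases the constant genes differed at 23 positions and were 95.6% alike. Reads within the coding sequence that miss those positions cannot be assigned to either gene with certainty. The bases after the coding sequence, which 3' reads also cover, were not compared.

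The values that chose the members were few per cell. The 315 cells held 629 Trbv14 UMIs in all, 87 at day 3, 295 at day 7 and 247 at day 14. Just inside the threshold, 163 cells had exactly 1 Trbv14 UMI; 85 had 2 and 67 had 3 or more, and the largest value was 22 in a day 7 cell. Just outside it, 924 CD8 barcodes of the same gate had no UMI of any Trbv segment, and 52 barcodes failed on Csf1r alone. A further 4 with Cd3, Cd8 and Trbv14 UMIs lay under the UMI minimum, counted whatever their mitochondrial share or Csf1r. Among CD8 barcodes with any Trbv UMI, Trbv14 cells made up 62.8%, 80.5% and 83.6% in day order, with exact Clopper-Pearson intervals of 51.7 to 73.0%, 74.1 to 86.0% and 76.2 to 89.4%. Without the shared barcodes they made up 61.8%, 82.0% and 83.9%. With at least 2 UMIs of a segment required, the shares were 78.3%, 95.9% and 95.5%. Among all CD8 barcodes of the gate the shares were 14.3% (10.9 to 18.2%), 28.8% (24.9 to 32.9%) and 25.9% (21.8 to 30.3%). The day 3 share lay below those of both later days, whose intervals overlapped.

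Trbv14 RNA was nearly absent from macrophage, monocyte and NK barcodes without Cd3 UMIs. These gates leave out barcodes that also hold Cd3 RNA, so Trbv14 in such barcodes is not seen in them. Barcodes with Cd3, Cd8 and Csf1r UMIs numbered 81, 43 and 61 in day order, and 24, 10 and 18 of them held Trbv14 RNA. In macrophage and monocyte barcodes (Csf1r and Lyz2 present, no Cd3 genes) it was found in 0 of 1177 at day 3, 0 of 819 at day 7 and 0 of 1128 at day 14, which allows shares of up to 0.255%, 0.366% and 0.266%; their median depth was 10567, 10860 and 11841 UMIs. NK barcodes (Ncr1 present, no Cd3 genes) held it in 2 of 168, 1 of 345 and 0 of 137. In CD4 T cell barcodes, with 4478, 6127 and 5139 median UMIs, it was found in 0 of 34 at day 3, 9 of 80 at day 7 (11.25%, 5.28 to 20.3%) and 2 of 134 at day 14. A segment other than Trbv14 was also found in 9 of the 80 day 7 CD4 cells. Among the Trbv14 cells themselves, Cd4 was detected in 0, 11 and 3 cells.

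A second Trbv segment was counted in 34 of the 315 members, 4 at day 3, 19 at day 7 and 11 at day 14. In 30 of these cells the second segment was Trbv13-1, in 3 it was Trbv12-2 and in 1 Trbv31. Trbv13-1 was not the leading segment of the other-Trbv cells. There, Trbv12-2 took 28 of 103 Trbv UMIs and was found in 25 of the 90 cells, Trbv19 was found in 14 and Trbv13-1 in 13.

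The constant gene Trbc2 stood at higher levels in Trbv14 cells than in other-Trbv cells in all 3 libraries. It had 10731 CPM (the UMIs of a gene scaled to the total of the summed cells) at day 3, 13558 at day 7 and 12344 at day 14 in Trbv14 cells, against 2353, 4808 and 4589 CPM in other-Trbv cells. The log2 fold change was 1.76 ± 0.21 (SE, 3 library pairs), and the adjusted p of edgeR's quasi-likelihood test was 0.0594, short of the threshold of 0.05. Cell by cell, the median was 120, 138 and 126 Trbc2 UMIs per 10000 in Trbv14 cells and 19.4, 22.2 and 23.6 in other-Trbv cells. The median level did not follow the number of Trbv14 UMIs in a cell, but the lowest levels lay in cells with 1 Trbv14 UMI. The minimum there was 8.84, 3.73 and 9.06 per 10000 in day order. With 2 Trbv14 UMIs it was 68.9, 74.0 and 58.5, and with 3 or more 69.2, 79.4 and 61.2. At day 7 the median was 138 in cells with 1 Trbv14 UMI, 137 with 2 and 140 with 3 or more, and at day 3 it was 120, 143 and 109.

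**Figure D1:**
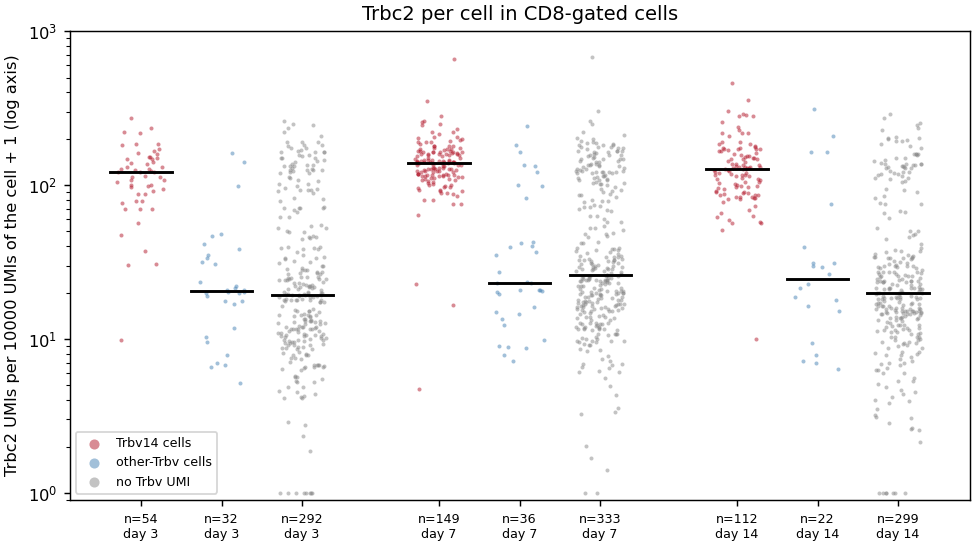
Trbc2 UMIs per 10000 UMIs of a cell plus 1, on a log axis, for each Trbv14 cell, each other-Trbv cell and each CD8 cell with no Trbv UMI at days 3, 7 and 14; points are cells and black bars are medians. Trbv14 cells sit around medians of 120, 138 and 126, most other-Trbv cells lie near 20, and cells with no Trbv UMI spread over both ranges.

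The lowest 10% of Trbv14 cells had under 59.4 Trbc2 UMIs per 10000 at day 3, under 92.2 at day 7 and under 77.3 at day 14. Of the other-Trbv cells, 3 of 32, 8 of 36 and 4 of 22 reached those values. The segment they held was uneven. Of the 13 other-Trbv cells with Trbv13-1, 11 were at or above the value of their day, with a median of 133 Trbc2 UMIs per 10000, compared with 2 of 25 cells with Trbv12-2 (median 19.8), 0 of 14 with Trbv19 (median 18.4), 0 of 9 with Trbv13-2 (median 7.94) and 0 of 8 with Trbv16. Of the CD8 cells with no Trbv UMI, 71 of 292 at day 3, 85 of 333 at day 7 and 57 of 299 at day 14 (24.3%, 25.5% and 19.1%) were as high. These segments were looked at after their values were seen, so the counts are a description.

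The other constant gene, Trbc1, took a smaller share of the Trbc UMIs in Trbv14 cells, 10.5% at day 3, 8.62% at day 7 and 7.35% at day 14, against 22.2%, 21% and 22.1% in other-Trbv cells. More Trbc1 than Trbc2 UMIs were counted in 1 of 54, 0 of 149 and 0 of 112 Trbv14 cells, and in 7 of 32, 11 of 36 and 4 of 22 other-Trbv cells. The level of Trbc1 itself overlapped between the groups, with 1265, 1280 and 979 CPM in Trbv14 cells and 671, 1280 and 1304 CPM in other-Trbv cells. Trac, the constant segment of the alpha chain, was alike in level, with 668, 753 and 490 CPM in Trbv14 cells and 615, 750 and 634 CPM in other-Trbv cells (log2 fold change -0.02 ± 0.13 SE, edgeR adjusted p = 0.972). Variable alpha segments were rarely counted, and no single partner led. In Trbv14 cells 87 Trav UMIs spread over 31 segments, the first of which, Trav12-2, held 13 UMIs (14.9%) in 9 cells. Other-Trbv cells had 22 Trav UMIs over 14 segments, with 13.6% in the first. CD8 cells with no Trbv UMI had 173 over 39, with 15.6% in the first. With so few UMIs over 315 members a shared alpha segment could be missed.

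The CD3 genes and the co-receptor genes, which the gate used, were close to those of the other-Trbv cells. Cd8a, the alpha chain of the CD8 co-receptor, had 514, 607 and 495 CPM in Trbv14 cells and 578, 667 and 430 CPM in other-Trbv cells. Cd8b1, the beta chain, had 513, 629 and 409 CPM in Trbv14 cells and 568, 755 and 427 CPM in other-Trbv cells. Of the 18 receptor complex and proximal signalling genes tested, none passed the edgeR test in either direction, and their median log2 fold change was 0.02, the same as over all genes tested. With 2.16% of all genes called, the absence of a call says little about so short a list. The list, which includes Trbc2, summed to 15886, 19040 and 16418 CPM in Trbv14 cells. In other-Trbv cells it summed to 6825, 10547 and 9860 CPM.

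The comparison of Trbv14 cells with other-Trbv cells asks whether CD8 T cells with the transferred segment differed in state from CD8 T cells of the same tumours with another segment. UMIs were summed per library and cell group, and the library was kept as a pair. Of 7406 genes tested, 87 rose in Trbv14 cells (1.17%) and 73 fell (0.986%), with a BH-adjusted p under 0.05 in edgeR's quasi-likelihood test; these include Trbv14 and Trbv12-2, which the rule used. The 160 genes called (2.16%) included secreted factors, surface receptors and transcription factors. Lta, Ccr7, Il2ra, Crtam and Cd160 rose, whereas Id2, Eomes, Prdm1, Havcr2, Cxcr6 and Gzmk fell. Without the day 7 library 33 of the 160 genes were still called, without day 3 it was 115 and without day 14 it was 93. Each of the 160 kept its direction in those 3 fits. The filter on low counts also keeps a gene with enough UMIs in the sums of only 1 cell group. The direction of such a gene is tied to that group. With no filter 159 of the 160 genes were still called. With each cell thinned to 5000 UMIs 27 of 98 genes that could be tested were still called, and without the shared barcodes 87 of 140. Of the called genes described, Lta, Pou2f2, Rgcc, Srm, Hspd1, Nolc1, Gnl3, Npm1, Trdc, Tff1, Epas1, Eomes, Havcr2, Id2 and Tcrg-C2 passed the edgeR test without any one library. Each of the others, apart from the segments that the rule used, was lost without at least 1 of the 3. Of the genes described, Cd38, Entpd1, Gnl3, Id3, Klf2, Lag3, Mki67, Ncl, Nolc1, Npm1, Nr4a1, Pdcd1, Prf1, Slamf6, Tcf7, Tcrg-C2 and Tox were named after their values were seen.

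Of the secreted factors, Lta, which encodes lymphotoxin alpha, gave the largest log2 fold change among the genes that rose, apart from Trbv14. It had 39.1, 19.2 and 46.9 CPM in Trbv14 cells of days 3, 7 and 14 and 3.73, 2.52 and 5.66 CPM in other-Trbv cells (log2 fold change 3.21 ± 0.37 SE, edgeR adjusted p = 0.00313). The groups did not overlap, but single cells held much of the RNA: 1 cell held 33 of the 65 UMIs of day 7 and another 107 of the 152 UMIs of day 14. With the cell of most UMIs left out for every gene in every sum, the adjusted p of Lta was 0.0104. Tnfsf8, the ligand of CD30, had 25.8, 56.1 and 55.8 CPM in Trbv14 cells and 4.97, 11.3 and 25.5 CPM in other-Trbv cells (log2 fold change 1.96, edgeR adjusted p = 0.014). Xcl1, a chemokine that attracts XCR1+ dendritic cells, was the most abundant of these factors and did not pass the test. It had 3045, 1393 and 1359 CPM in Trbv14 cells and 84.5, 190 and 150 CPM in other-Trbv cells (log2 fold change 3.77 ± 0.75 SE, edgeR adjusted p = 0.228). Its groups did not overlap, and it was detected in 62.96%, 65.1% and 81.25% of Trbv14 cells, against 21.9%, 19.4% and 36.4% of other-Trbv cells, although single cells held 1237 of 4360, 777 of 4718 and 408 of 4405 UMIs.

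**Figure D2:**
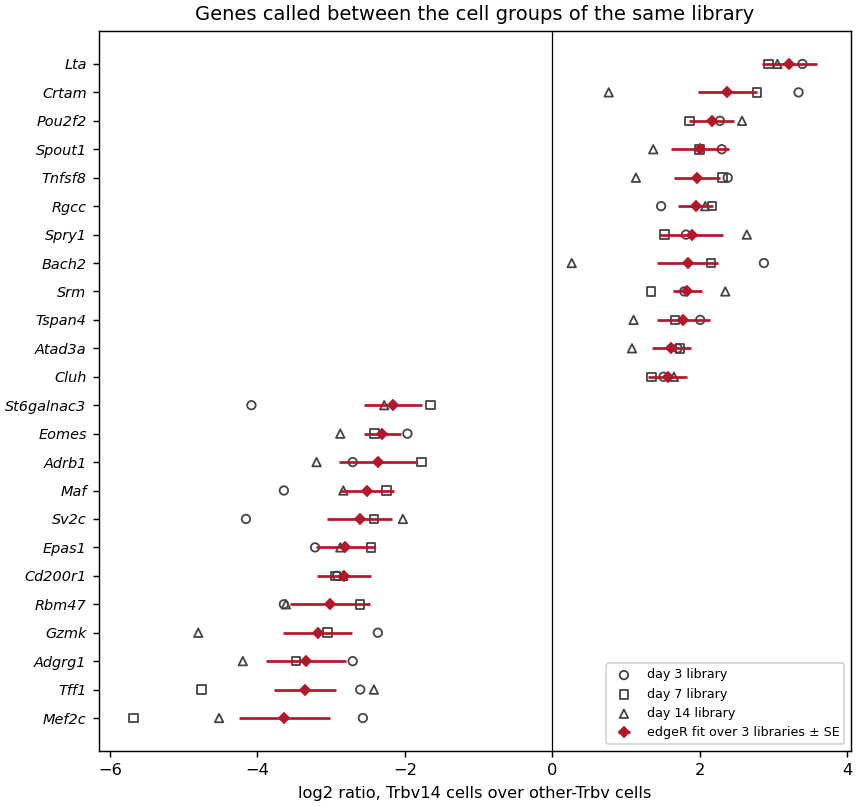
Log2 ratio of Trbv14 cells to other-Trbv cells for the 12 called genes with the largest rise and the 12 with the largest fall. They were ranked among called genes with the same sign in all 3 libraries, with receptor segments (such as Trdc and Tcrg-C2) and predicted genes left out. Open symbols are the 3 libraries, diamonds the edgeR fit with its SE, and the line at 0 marks equal levels. All 3 libraries lie above 0 for genes such as Lta (fit 3.21) and Crtam (2.37), and below 0 for genes such as Gzmk (-3.18) and Eomes (-2.31).

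Surface receptors went both ways. Crtam, an adhesion receptor of activated cytotoxic lymphocytes, had 88.0, 120 and 67.3 CPM in Trbv14 cells and 8.7, 17.6 and 39.6 CPM in other-Trbv cells (log2 fold change 2.37 ± 0.40 SE, edgeR adjusted p = 0.0207). Cd160, a receptor for HVEM and MHC class I, had 207, 239 and 155 CPM in Trbv14 cells and 44.8, 108 and 93.4 CPM in other-Trbv cells (log2 fold change 1.42, edgeR adjusted p = 0.0166). Both rose, and in each the 3 values of Trbv14 cells lay above the 3 of other-Trbv cells. Ccr7, the receptor that guides T cells to lymph nodes, had 165, 288 and 306 CPM in Trbv14 cells and 72.1, 68.1 and 181 CPM in other-Trbv cells (log2 fold change 1.40, edgeR adjusted p = 0.014). Il2ra, the high-affinity subunit of the interleukin-2 receptor, had 164, 79.7 and 69.1 CPM in Trbv14 cells and 53.5, 39.1 and 39.6 CPM in other-Trbv cells (log2 fold change 1.29, edgeR adjusted p = 0.0157). Ccr7 overlapped at one point, the day 3 value of Trbv14 cells lying under the day 14 value of other-Trbv cells, while Il2ra did not overlap. Without the day 7 library the edgeR adjusted p was 0.13 for Crtam, 0.0636 for Cd160, Ccr7 and Il2ra, and 0.0904 for Tnfsf8. Without the shared barcodes it was 0.0701 for Crtam, and with each cell thinned to 5000 UMIs it was 0.373 for Ccr7, 0.426 for Il2ra, 0.256 for Tnfsf8 and 0.0808 for Cd160.

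Among inhibitory receptor and exhaustion genes, 6 fell and 1 rose of 18 tested, with a median log2 fold change of -0.75, compared with 0.02 over all genes. The 6 that fell were Havcr2, Ctla4, Entpd1, Cd38, Eomes and Batf, and the 1 that rose was Cd160. Without the day 7 library Havcr2 and Eomes stayed called, while the edgeR adjusted p was 0.193 for Cd38, 0.199 for Entpd1, 0.0747 for Ctla4, 0.0855 for Batf and 0.0636 for Cd160. Havcr2 encodes TIM-3, an inhibitory receptor of chronically stimulated T cells. It had 24.4, 28.9 and 14.5 CPM in Trbv14 cells and 103, 80.7 and 45.3 CPM in other-Trbv cells (log2 fold change -1.66 ± 0.21 SE, edgeR adjusted p = 0.00612). Ctla4 had 212, 279 and 163 CPM in Trbv14 cells and 409, 386 and 294 CPM in other-Trbv cells (log2 fold change -0.69, edgeR adjusted p = 0.0371). Neither gene overlapped between the groups, with a narrow gap for Ctla4. The Ctla4 call was lost whichever library was left out (adjusted p 0.0924 without day 3 and 0.104 without day 14), without the shared barcodes (0.13) and with thinned cells (0.155), and with thinned cells that of Havcr2 was 0.0651. Pdcd1, which encodes PD-1, did not pass: it had 51.7, 113 and 168 CPM in Trbv14 cells and 305, 257 and 136 CPM in other-Trbv cells (log2 fold change -1.11 ± 0.64 SE, edgeR adjusted p = 0.518). It was lower in Trbv14 cells at days 3 and 7 and higher at day 14. Tox, a transcription factor of exhausted T cells, had 30.7, 53.1 and 111 CPM in Trbv14 cells and 168, 229 and 144 CPM in other-Trbv cells (log2 fold change -1.59 ± 0.38 SE, edgeR adjusted p = 0.11), lower in all 3 libraries without passing the test.

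Transcription factors of effector and memory fate were among the calls in both directions. Id2, which represses E proteins and is needed for effector and innate-like lymphocytes, had 199, 243 and 139 CPM in Trbv14 cells and 598, 749 and 617 CPM in other-Trbv cells (log2 fold change -1.72 ± 0.15 SE, edgeR adjusted p = 0.000563). Eomes, a T-box factor of cytotoxic and memory lymphocytes, had 18.2, 13.3 and 7.71 CPM in Trbv14 cells and 70.9, 70.6 and 56.6 CPM in other-Trbv cells (log2 fold change -2.31 ± 0.25 SE, edgeR adjusted p = 0.0019). Both fell with wide gaps between the groups, and both passed without any one library. Prdm1, which encodes the terminal effector factor Blimp-1, had 9.08, 9.15 and 12.3 CPM in Trbv14 cells and 53.5, 42.9 and 25.5 CPM in other-Trbv cells (log2 fold change -1.94, edgeR adjusted p = 0.014). Bach2, which restrains effector differentiation, had 27.2, 44.9 and 23.8 CPM in Trbv14 cells and 3.73, 10.1 and 19.8 CPM in other-Trbv cells (log2 fold change 1.84, edgeR adjusted p = 0.0484). Prdm1 fell and Bach2 rose, neither with overlap between the groups. Of the 18 fate transcription factors tested, 5 fell (Eomes, Id2, Prdm1, Runx3 and Batf) and 1 rose (Bach2), with a median of 0.00; Tcf7, the factor of stem-like and memory T cells, did not pass (41.9, 118 and 130 CPM in Trbv14 cells, 34.8, 27.7 and 195 CPM in other-Trbv cells, edgeR adjusted p = 0.718). Without the day 7 library the adjusted p was 0.251 for Bach2, 0.0817 for Prdm1, 0.0855 for Batf and 0.103 for Runx3, which was also lost without day 14 (0.11); without the shared barcodes it was 0.148 for Bach2.

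Naive and memory genes had 3 that rose, Ccr7, Bach2 and Foxp1, and none that fell of 17 tested, with a median of 0.28; all 3 calls were lost without day 7. Foxp1, a factor that keeps T cells quiescent, had 149, 172 and 142 CPM in Trbv14 cells and 77.1, 52.9 and 110 CPM in other-Trbv cells (log2 fold change 1.09, edgeR adjusted p = 0.0371). Its groups did not overlap, but the adjusted p was 0.908 with thinned cells, 0.2 without the shared barcodes and 0.181 without day 7. Klf2, a transcription factor of recirculating T cells, did not pass: it had 42.6, 77.7 and 60.2 CPM in Trbv14 cells and 126, 101 and 266 CPM in other-Trbv cells (log2 fold change -1.29, edgeR adjusted p = 0.0813).

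Tissue residence and homing genes had 3 that fell (Cxcr6, Prdm1 and Runx3) and none that rose of 13 tested, and all 3 calls were lost without day 7. Cxcr6, a chemokine receptor of tissue-lodged T cells, had 108, 185 and 64.8 CPM in Trbv14 cells and 390, 405 and 96.2 CPM in other-Trbv cells (log2 fold change -1.18 ± 0.20 SE, edgeR adjusted p = 0.0161, 0.0817 without day 7 and 0.191 with thinned cells). Each Trbv14 value was under the other-Trbv value of its own library. Of 17 costimulatory and cytokine receptor genes, Il2ra rose and Il2rb, Ifngr1 and Il10ra fell; the edgeR adjusted p of Ifngr1 was 0.119 without day 14 and that of Il10ra 0.191 without day 7. Il2rb, the beta subunit that Il2ra joins, had 383, 322 and 196 CPM in Trbv14 cells and 614, 497 and 441 CPM in other-Trbv cells (log2 fold change -0.76, edgeR adjusted p = 0.0261, 0.0731 without day 7 and 0.0991 without day 14). The alpha and beta subunits of the same receptor thus moved in opposite directions between the same sums.

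Among effector and cytotoxic genes, 1 of 18 tested passed, and the list's median was 0.04. The gene was Gzmk, which encodes granzyme K, with 46.8, 23.3 and 7.71 CPM in Trbv14 cells and 241, 193 and 215 CPM in other-Trbv cells (log2 fold change -3.18 ± 0.47 SE, edgeR adjusted p = 0.0492). Its groups did not overlap, but the adjusted p was 0.161 without day 7, 0.46 without the shared barcodes and 0.261 without the top cell of each gene. Gzmb, the main cytotoxic granzyme, had 3620, 816 and 577 CPM in Trbv14 cells and 2320, 1752 and 396 CPM in other-Trbv cells (log2 fold change 0.09 ± 0.55 SE, edgeR adjusted p = 0.965). Prf1, the pore-forming perforin, had 148, 110 and 86.4 CPM in Trbv14 cells and 1079, 348 and 119 CPM in other-Trbv cells (log2 fold change -1.70 ± 0.50 SE, edgeR adjusted p = 0.234). Gzmb changed sides between libraries, whereas Prf1 was lower in Trbv14 cells in all 3 without passing.

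**Figure D3:**
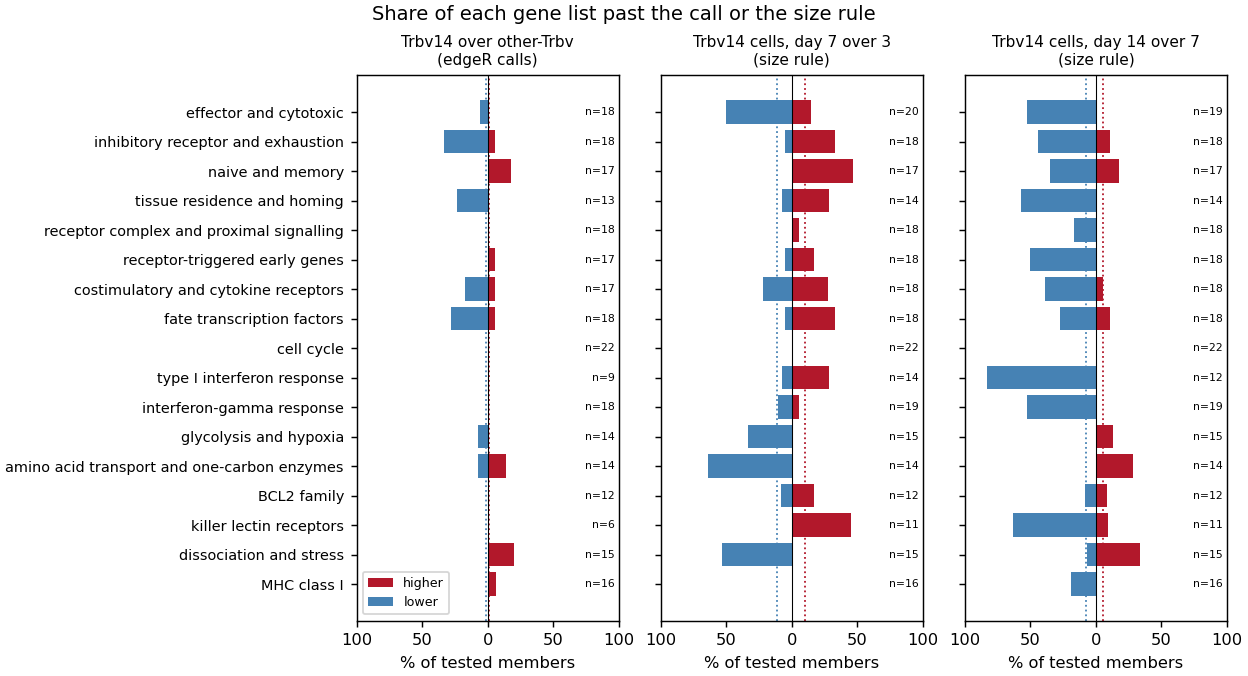
Percent of the tested members of each gene list that were higher (bars to the right) or lower (bars to the left), for Trbv14 cells over other-Trbv cells by the edgeR call and, within Trbv14 cells, for day 7 over day 3 and day 14 over day 7 by a rule of size; dotted lines give the share over all genes. The inhibitory receptor list has 6 of 18 members lower in the first comparison, and the type I interferon list 10 of 12 lower for day 14 over day 7.

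Metabolic and growth genes were also among the calls. Srm, spermidine synthase, had 378, 112 and 172 CPM in Trbv14 cells and 109, 44.1 and 34.0 CPM in other-Trbv cells (log2 fold change 1.83 ± 0.19 SE, edgeR adjusted p = 0.0019). Shmt1, an enzyme of one-carbon metabolism, and Asns, asparagine synthetase, rose (log2 fold changes 1.48 and 1.19, edgeR adjusted p = 0.0157 and 0.0369), while Gldc, the glycine decarboxylase, fell (-2.15, edgeR adjusted p = 0.0157). The Srm call held without any one library, while the adjusted p of Asns was 0.282 without day 3, that of Shmt1 0.18 without the shared barcodes, and that of Gldc 0.143 without the cell with the most Gldc UMIs in each sum. With 2 that rose and 1 that fell of 14 tested, the amino acid and one-carbon list had a median of 0.54. Of 14 glycolysis and hypoxia genes 1 fell, Pkm, pyruvate kinase, with 703, 492 and 532 CPM in Trbv14 cells and 1271, 1070 and 820 CPM in other-Trbv cells (log2 fold change -0.81 ± 0.12 SE, edgeR adjusted p = 0.0135, 0.0636 without day 7). Among 15 dissociation and stress genes 3 chaperones rose, Hspd1, Hspe1 and Hsp90ab1 (log2 fold changes 1.02, 0.60 and 0.39, edgeR adjusted p = 0.00875, 0.0353 and 0.0241). The Hspd1 call held without any one library. That of Hspe1 was lost without each of them (0.0604, 0.0657 and 0.125 without days 3, 7 and 14) and without the shared barcodes (0.208), and that of Hsp90ab1 was lost without day 3 (0.068), day 14 (0.0991) or the shared barcodes (0.0599). Nolc1, Gnl3 and Ncl, which encode nucleolar proteins, and Npm1, nucleophosmin, also rose (log2 fold changes 1.18, 1.32, 0.89 and 0.70, edgeR adjusted p = 0.00819, 0.0178, 0.014 and 0.014).

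The other genes with the largest fold changes among those that passed were of mixed kinds. Pou2f2, which encodes the octamer factor Oct-2, Spout1, Rgcc, a regulator of the cell cycle, Spry1, an inhibitor of growth factor signalling, Tspan4, a tetraspanin, Atad3a, a mitochondrial membrane ATPase, and Cluh, which binds RNAs of mitochondrial proteins, rose with log2 fold changes between 1.56 (Cluh) and 2.16 (Pou2f2). Rgcc is an example, with 65.6, 84.7 and 83.3 CPM in Trbv14 cells and 23.6, 18.9 and 19.8 CPM in other-Trbv cells (log2 fold change 1.94 ± 0.24 SE, edgeR adjusted p = 0.0045). Mef2c, Tff1, Adgrg1, Rbm47, Cd200r1, Epas1, Sv2c, Maf, Adrb1 and St6galnac3 fell, with log2 fold changes between -2.16 (St6galnac3) and -3.63 (Mef2c). Of these, Cd200r1, an inhibitory receptor, had 2.79, 4.43 and 2.78 CPM in Trbv14 cells and 21.1, 34.0 and 19.8 CPM in other-Trbv cells, and Maf, a transcription factor of helper and dysfunctional T cells, had 1.4, 10.6 and 2.78 CPM in Trbv14 cells and 17.4, 50.4 and 19.8 CPM in other-Trbv cells. The RNA of these genes was low in Trbv14 cells, and Mef2c had under 5 CPM at each day.

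Constant segments of the gamma-delta receptor moved apart. Trdc, of the delta chain, rose, with 12.6, 39.0 and 41.3 CPM in Trbv14 cells and 1.24, 7.56 and 0 CPM in other-Trbv cells (log2 fold change 3.06 ± 0.47 SE, edgeR adjusted p = 0.014; this fitted value rests on 1, 6 and 0 UMIs in other-Trbv cells). Tcrg-C2, of a gamma chain, fell, with 2.09, 3.84 and 2.78 CPM in Trbv14 cells and 27.4, 63.0 and 67.9 CPM in other-Trbv cells (log2 fold change -4.12 ± 0.32 SE, edgeR adjusted p = 0.00036). Both calls held without any one library. Each gene was low in 1 cell group, so it passed the filter on low counts through the group where it was high.

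Of 22 cell cycle genes 0 passed in either direction, with a median of -0.18; with 2.16% of all genes called, a count of 0 says little about so short a list. Top2a, a topoisomerase of dividing cells, had 326, 319 and 275 CPM in Trbv14 cells and 283, 426 and 308 CPM in other-Trbv cells (log2 fold change -0.07, edgeR adjusted p = 0.877). Against all CD8 cells of the gate without Trbv14, the log2 fold change was 0.53 for Top2a and 0.51 for Mki67, another gene of dividing cells. Both passed the edgeR test in that fit, which called 618 genes as higher. Against other-Trbv cells none passed of 9 type I interferon genes, 18 interferon-gamma genes, 12 BCL2 family genes and 6 killer lectin receptor genes, whose medians were -0.07, -0.26, 0.10 and 0.17. Of 17 early genes triggered by the receptor 1 rose, Spry1, and of 16 MHC class I genes 1 rose, Calr, which encodes calreticulin; both calls were lost without day 7 and without day 14.

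Nrgn, proposed as a marker of these cells, did not separate them from other-Trbv cells over the 3 libraries. It encodes neurogranin, a calmodulin-binding protein best known from neurons. It had 34.2, 427 and 482 CPM in Trbv14 cells and 139, 315 and 260 CPM in other-Trbv cells (log2 fold change -0.01 ± 0.70 SE, edgeR adjusted p = 0.998). It was lower in Trbv14 cells at day 3 and higher at days 7 and 14. Without the day 3 library the log2 fold change was 0.70, with an edgeR adjusted p under 0.05. That fit rests on days 7 and 14 only.

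The comparison of days within Trbv14 cells asks how the RNA of these cells differed as time passed after transfer. A gene was counted as higher or lower when it had at least 20 UMIs over both days, a ratio of at least 1.5 and an interval that excludes 1; this is a rule of size within these libraries, not a test of days. For day 7 over day 3, 900 of 8805 genes were higher (10.2%) and 970 lower (11.0%). For day 14 over day 7, 478 of 9364 were higher (5.1%) and 740 lower (7.9%), and for day 14 over day 3, 652 of 8667 were higher (7.52%) and 695 lower (8.02%). The median log2 ratio over all genes was 0.03 for day 7 over day 3 and 0.00 for day 14 over day 7. Days are compared here on 1 library each.

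Effector and cytotoxic RNA was highest at day 3: the 22 genes of the list summed to 19659, 7689 and 4573 CPM in day order. Of 20 effector and cytotoxic genes measured, 10 were lower and 3 higher at day 7 than at day 3 (median log2 ratio -0.99), and of 19 measured for day 14 over day 7, 10 were lower and none higher (median -0.82). The shares over all genes were 11.0% lower and 10.2% higher, then 7.9% and 5.1%. Gzma, a granzyme, had 1771 CPM at day 3, 175 at day 7 and 5.55 at day 14. The day 7 value was 10.1-fold lower than day 3 (interval 9.23 to 11.1) and the day 14 value 31.6-fold lower than day 7 (19.8 to 53.7). It was found in 35 of 54 cells, 51 of 149 and 13 of 112. Gzmb had 3620, 816 and 577 CPM, 4.44-fold lower at day 7 than at day 3 (4.23 to 4.65), and Ccl5, a chemokine of effector T cells, had 2269, 1080 and 232 CPM. In both granzymes and in Ccl5 the order of the days was the same without the cell that held the most UMIs. Without the shared barcodes the log2 ratio of day 7 to day 3 was -3.96 for Gzma and -2.32 for Gzmb, compared with -3.34 and -2.15 with all cells. Gzmc, another granzyme, had 307, 417 and 53.7 CPM, with its largest value at day 7.

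The cytokine Ifng and the chemokines Ccl3, Ccl4 and Cxcl10 were also highest at day 3, but a few cells held much of their RNA. Ifng had 2510, 330 and 300 CPM, of which a single cell of day 3 supplied 2166 of 3594 UMIs. With the top cell of each day left out it had 997, 285 and 199.9 CPM, so that the day 7 value was 3.5-fold lower than that of day 3, compared with 7.60-fold with all cells. Ccl4 had 1790, 742 and 164 CPM, and 625, 496 and 110 CPM without the top cells, which makes day 7 1.26-fold lower than day 3, compared with 2.41-fold with all cells. Cxcl10 had 174, 13.9 and 13.0 CPM, and a single cell supplied 183 of the 249 UMIs of day 3. Ccl3 had 1473, 353 and 177 CPM and kept the order of the days without its top cells.

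**Figure D4:**
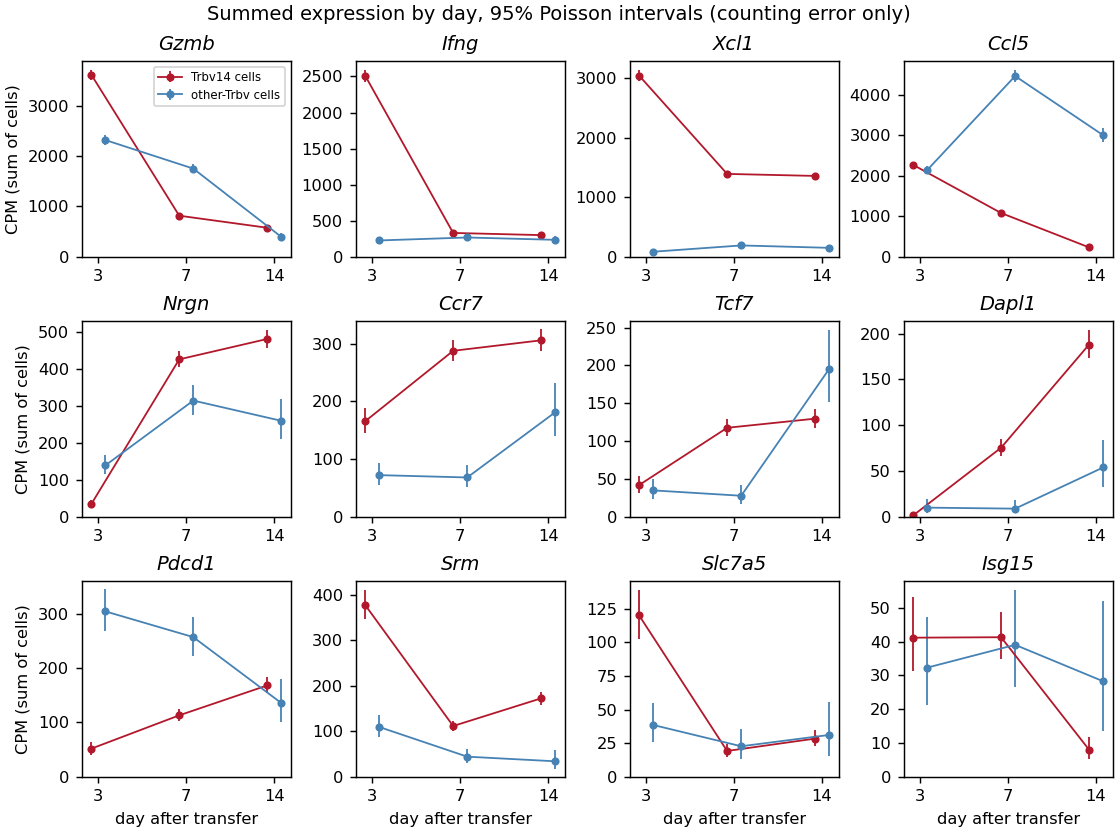
CPM of 12 genes in Trbv14 cells and other-Trbv cells at days 3, 7 and 14, each panel with its own axis from 0; points are the summed cells of 1 library and bars are 95% Poisson intervals. Gzmb is at 3620, 816 and 577 CPM in Trbv14 cells, Nrgn at 34.2, 427 and 482, and Tcf7 at 41.9, 118 and 130.

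Naive and memory genes stood higher at day 7. Of 17 measured, 8 were higher and none lower at day 7 than at day 3 (median log2 ratio 0.69), among them Ccr7, Il7r, Tcf7, Klf2, Bach2, Slamf6 and Dapl1. Of all genes 10.2% were higher and 11.0% lower. Tcf7 had 41.9 CPM at day 3, 118 at day 7 and 130 at day 14, 2.80-fold higher at day 7 than at day 3 (interval 2.13 to 3.74), with a log2 ratio of 1.40 without the shared barcodes. Dapl1, a gene of memory and stem-like CD8 T cells, had 1.4, 75.3 and 188 CPM, from 1 of 54 cells, 20 of 149 and 52 of 112. The day 3 value rests on 2 UMIs, so the 53.9-fold ratio of day 7 to day 3 has a wide interval (14.8 to 448), and 2.5-fold more was found at day 14 than at day 7 (2.15 to 2.90). Without the shared barcodes the log2 ratios were 2.70 for day 7 over day 3 and 3.18 for day 14 over day 7, compared with 5.75 and 1.32 with all cells. Between days 7 and 14 the list went both ways, with Id3, Slamf6 and Dapl1 higher and 6 genes lower, among them Ly6c2 (675, 658 and 223 CPM). For those days 5.1% of all genes were higher and 7.9% lower. Id3, an inhibitor of E proteins in memory cells, had 15.4, 24.8 and 46.6 CPM.

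Nrgn was among the genes with the largest difference between days 3 and 7. Its 34.2 CPM at day 3, 427 at day 7 and 482 at day 14 give a ratio of 12.5 for day 7 over day 3 (interval 9.39 to 16.9) and of 1.13 for day 14 over day 7 (1.05 to 1.21). It was found in 8 of 54 cells at day 3, 79 of 149 at day 7 and 83 of 112 at day 14. With the top cell of each day left out the first ratio was 19.99, and with the shared barcodes left out the log2 ratio was 3.36, compared with 3.64 with all cells. Other genes with the largest differences upward were Cd81, a tetraspanin (0.698, 59.6 and 67.0 CPM), Csf2, the cytokine GM-CSF (4.89, 34.8 and 28.7 CPM), Ccl9, a chemokine (6.28, 50.2 and 15.4 CPM), and Itga1, an integrin of resident T cells (4.89, 31.3 and 1.54 CPM). Cd81 at day 3 is 1 UMI in 1 cell. Itga1 was highest at day 7 and was found in 5 of 54 cells, 49 of 149 and 4 of 112, and 20.3-fold lower at day 14 than at day 7 (8.43 to 63.8).

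Inhibitory receptor genes were more often higher than lower at day 7 relative to day 3, and the reverse at day 14 relative to day 7. Of 18 measured, 6 were higher and 1 lower at day 7 (median log2 ratio 0.25), and 2 were higher and 8 lower at day 14 than at day 7 (median -0.42). The shares over all genes were 10.2% higher and 11.0% lower, then 5.1% and 7.9%. Pdcd1 had 51.7, 113 and 168 CPM, 2.19-fold higher at day 7 than at day 3 (interval 1.70 to 2.85) and 1.49-fold higher at day 14 than at day 7 (1.30 to 1.70), just under the size rule; without the shared barcodes the log2 ratio of day 7 to day 3 was 0.72, compared with 1.13 with all cells. Tox had 30.7, 53.1 and 111 CPM, 1.73-fold (1.24 to 2.46) and then 2.08-fold higher (1.74 to 2.51). Havcr2 had 24.4, 28.9 and 14.5 CPM and Cd160 207, 239 and 155 CPM, each lower at day 14 than at day 7; with cells thinned to 5000 UMIs the Havcr2 log2 ratio of those days was 0.13, compared with -1 with all cells. Lag3, an inhibitory receptor for MHC class II, had 66.3, 104 and 75.6 CPM.

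Interferon-stimulated genes were lower at day 14 than at day 7. Of 12 type I interferon response genes measured for day 14 over day 7, 10 were lower and none higher (median log2 ratio -1.34), and of 19 interferon-gamma response genes 10 were lower and none higher (median -0.62). Of all genes 7.9% were lower and 5.1% higher. Isg15, a ubiquitin-like antiviral protein, had 41.2, 41.3 and 8.02 CPM, 5.15-fold lower at day 14 than at day 7 (interval 3.37 to 8.16). Irf7, a factor of the interferon response, had 26.5, 42.5 and 11.1 CPM, and Ifi27l2a 272, 806 and 396 CPM. Ifitm1, an antiviral membrane protein outside that list, had 39.1, 66.4 and 5.55 CPM.

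Residence genes, killer lectin receptors and early genes had more members lower than higher at day 14 relative to day 7. For those days 7.9% of all genes were lower and 5.1% higher. Of 14 residence and homing genes, 8 were lower and none higher, with Cxcr6 at 108, 185 and 64.8 CPM. Of 11 killer lectin receptors, 7 were lower and 1 higher. At day 7 relative to day 3, 5 had been higher and none lower, against 10.2% and 11.0% of all genes. Klrd1, which encodes CD94, had 281, 527 and 253 CPM, and Klrc2, an activating partner of CD94, had 25.8, 85.9 and 16 CPM. Of 18 early genes, 9 were lower and none higher; Nr4a1, induced by receptor signals, had 107, 139 and 68.8 CPM.

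Amino acid genes were more often lower than higher at day 7 relative to day 3, and more often higher than lower at day 14 relative to day 7. The shares over all genes were 11.0% lower and 10.2% higher, then 7.9% and 5.1%. Of 14 amino acid and one-carbon genes, 9 were lower and none higher at day 7 than at day 3 (median log2 ratio -0.84), and 4 were higher and none lower at day 14 than at day 7 (median 0.48). Slc7a5, a transporter of large neutral amino acids, had 120, 19.2 and 28.4 CPM, 6.26-fold lower at day 7 (interval 4.68 to 8.46). Phgdh, the first enzyme of serine synthesis, had 459, 246 and 386 CPM, and Srm 378, 112 and 172 CPM. Of 15 stress genes, 8 were lower and none higher at day 7 than at day 3, and 5 were higher and 1 lower at day 14 than at day 7. Hspd1 had 879, 362 and 558 CPM. For Hspa1a and Hspa1b, inducible chaperones, 1 cell held 96 of 110 and 127 of 154 UMIs of day 14, and without it they had 4.32 and 8.33 CPM at that day.

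The genes with the largest upward differences at day 14 rested in part on single cells. Arg1, arginase, had 4.89, 2.07 and 29.0 CPM, and Hmox1, heme oxygenase, had 6.98, 6.2 and 45.7 CPM; both are typical of macrophages, and 1 cell held 71 of the 94 Arg1 UMIs and 128 of the 148 Hmox1 UMIs of day 14. Without the top cells Arg1 had 7.10 and Hmox1 6.17 CPM at day 14. Bmyc, a relative of Myc, had 14.7, 9.15 and 40.4 CPM and was found in 9 of 54 cells, 15 of 149 and 45 of 112, so it did not rest on 1 cell. Cxcl2, a neutrophil chemokine also made by macrophages, had 18.9, 13.9 and 45.4 CPM in 22, 38 and 69 cells.

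Of 22 cell cycle genes, 0 were higher and 0 lower by the size rule between days 3 and 7 and between days 7 and 14. The shares over all genes were 10.2% higher and 11.0% lower, then 5.1% and 7.9%. The median log2 ratio of the list was -0.11 for day 7 over day 3 and 0.23 for day 14 over day 7. Mki67, a marker of dividing cells, had 182, 194 and 150 CPM. Without the shared barcodes the log2 ratio of Mki67 was -1.41 for day 7 over day 3, compared with 0.10 with all cells, and 1.15 for day 14 over day 7, compared with -0.37. Shares of cells with a cycling gene are given next, where cells were set to equal depth.

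To compare shares of cells across depths, each cell was thinned to 5000 UMIs, which left 53, 146 and 111 Trbv14 cells (1, 3 and 1 were shallower) and 31, 36 and 17 other-Trbv cells (1, 0 and 5 were shallower). Gzmb was then detected in 88.7% of Trbv14 cells at day 3, 50.7% at day 7 and 39.6% at day 14, against 74.2%, 66.7% and 41.2% of other-Trbv cells. In macrophage and monocyte barcodes thinned alike it was 4.48%, 1.79% and 1.12%. Tcf7 was detected in 20.8%, 31.5% and 45.9% of Trbv14 cells and in 22.6%, 19.4% and 52.9% of other-Trbv cells, with 0.448%, 0.384% and 0.744% in macrophages. Nrgn was detected in 5.66%, 41.1% and 64.0% of Trbv14 cells and in 25.8%, 33.3% and 35.3% of other-Trbv cells, with 0.179%, 0.895% and 0.372% in macrophages. From day 3 to day 14 fewer Trbv14 cells thus had Gzmb and more had Tcf7 and Nrgn. Without thinning, Gzmb was found in 92.6%, 60.4% and 49.1% of Trbv14 cells. Ifng was detected in 41.5%, 36.3% and 36.9% of thinned Trbv14 cells, with intervals that overlap at all days, while its CPM was 7.60-fold lower at day 7 than at day 3.

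**Figure D5:**
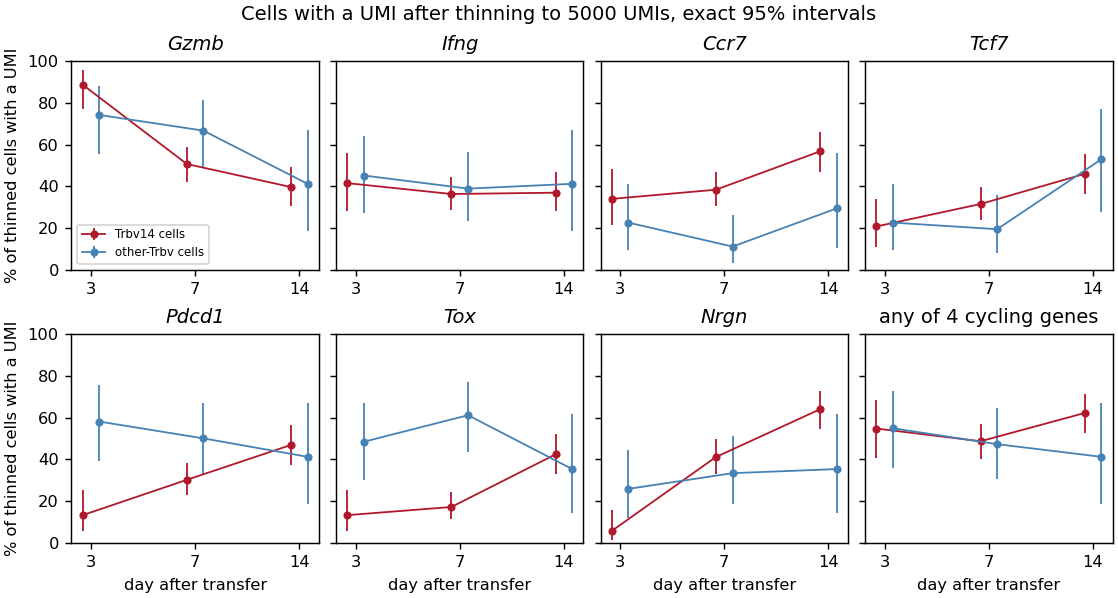
Percent of cells with a UMI of Gzmb, Ifng, Ccr7, Tcf7, Pdcd1, Tox, Nrgn or a cycling gene after thinning each cell to 5000 UMIs, for Trbv14 cells and other-Trbv cells at days 3, 7 and 14; bars are exact 95% intervals. In Trbv14 cells Gzmb is at 88.7%, 50.7% and 39.6%, and Nrgn at 5.66%, 41.1% and 64.0%.

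Pdcd1 and Tox were detected in fewer Trbv14 cells than other-Trbv cells at days 3 and 7, while at day 14 the shares of the cell groups lay within each other's intervals. Pdcd1 was detected in 13.2%, 30.1% and 46.8% of Trbv14 cells and in 58.1%, 50% and 41.2% of other-Trbv cells, and Tox in 13.2%, 17.1% and 42.3% of Trbv14 cells and in 48.4%, 61.1% and 35.3% of other-Trbv cells. In macrophages Pdcd1 was found in 0.179%, 0.639% and 0.279% of cells and Tox in 0.179%, 0.128% and 0%. At day 3 the exact interval of Pdcd1 in Trbv14 cells was 5.48 to 25.3%. A cycling gene (Mki67, Top2a, Cdk1 or Ccnb2) was detected in 54.7%, 48.6% and 62.2% of Trbv14 cells and in 54.8%, 47.2% and 41.2% of other-Trbv cells, with 5.28%, 4.48% and 7.72% in macrophages.

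Genes were also counted together in the same thinned cells. Whether a pair was found together more often than the shares of its single genes give was not tested. Ccr7 and Tcf7 were found together in 7.55% of Trbv14 cells at day 3, 19.2% at day 7 and 30.6% at day 14, and Ccr7 and Nrgn in 0%, 20.5% and 40.5%. Tcf7 and Gzmb, a gene of less differentiated and a gene of effector cells, were found together in 17.0%, 3.42% and 9.91% of Trbv14 cells. Tcf7 with Pdcd1, a pair used to describe stem-like cells in tumours, was found in 0 of 53, 11 of 146 and 19 of 111 Trbv14 cells (0%, 7.53% and 17.1%), and in 3.23%, 0% and 5.88% of other-Trbv cells. The single genes rose over the same days in Trbv14 cells, Tcf7 from 20.8% to 31.5% and 45.9% and Pdcd1 from 13.2% to 30.1% and 46.8%. Pdcd1 with Gzmb was found in 13.2%, 17.8% and 17.1% of Trbv14 cells and in 54.8%, 47.2% and 35.3% of other-Trbv cells. Tcf7 with a cycling gene was found in 5.66%, 13.0% and 26.1% of Trbv14 cells. At day 14, cells with Ccr7 made up 56.8% of Trbv14 cells and cells with Tcf7 45.9%.

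Markers of other cells were measured in the same sums. The 12 macrophage and monocyte markers summed to 153, 167 and 245 CPM in Trbv14 cells and 334, 171 and 235 CPM in other-Trbv cells, with Csf1r at 0 by the rule. The 12 dendritic cell markers, which include Ccr7, summed to 368, 505 and 741 CPM in Trbv14 cells and 855, 261 and 2524 CPM in other-Trbv cells, with Siglech at 0 in both groups; Cd74, the invariant chain, supplied 45.4, 81.8 and 210 CPM in Trbv14 cells, and in other-Trbv cells 1 cell held 235 of 280 Cd74 UMIs at day 3 and 291 of 333 at day 14. At day 14, 5 of 9 measured macrophage markers and 4 of 6 dendritic markers were higher in Trbv14 cells than at day 7, against 5.1% of all genes. The 8 neutrophil markers summed to 11.2, 12.4 and 10.2 CPM in Trbv14 cells and 57.2, 20.2 and 36.8 CPM in other-Trbv cells, and one of them, Il1r2, fell (log2 fold change -2.05, edgeR adjusted p = 0.0241). The 10 melanoma and erythroid markers summed to 1.40, 0.886 and 1.85 CPM in Trbv14 cells and 3.73, 0 and 5.66 CPM in other-Trbv cells. The part of these cells in the results above was not tested beyond the fit without barcodes holding 5 or more UMIs of other lineages, in which 114 of 157 genes tested were still called in the same direction.

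The 8 NK markers summed to 3135, 1542 and 1437 CPM in Trbv14 cells and 310, 353 and 399 CPM in other-Trbv cells, most of it Xcl1 in Trbv14 cells; Ncr1, the defining NK receptor, was at 0 in Trbv14 cells at day 3 and in other-Trbv cells at all 3 days. The 8 B cell markers summed to 71.2, 148 and 179 CPM in Trbv14 cells and 58.4, 80.7 and 116 CPM in other-Trbv cells, and Ms4a1 and Mzb1 were at 0 in all 6 sums. Most of that sum was Ighm, the immunoglobulin mu constant gene, which rose (64.9, 139 and 157 CPM in Trbv14 cells, 39.8, 76.9 and 76.4 CPM in other-Trbv cells, log2 fold change 0.93, edgeR adjusted p = 0.0223, 0.109 without day 7). The 7 markers of CD4, regulatory and gamma-delta T cells summed to 392, 412 and 276 CPM in Trbv14 cells and 495, 437 and 342 CPM in other-Trbv cells. Of Xist and the Y-linked genes 0 of 4 tested passed, near the 2.16% of all genes; Eif2s3y had 64.2, 62.0 and 58.3 CPM in Trbv14 cells and 65.9, 42.9 and 87.7 CPM in other-Trbv cells.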

How the data were processed

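Counts of UMIs per gene and barcode were deposited by the authors as 1 filtered matrix per library; Cell Ranger 4.0.0 and mm10 are named in the submitters' processing notes, and the library kit (10x 3' v3.1) in the labels. Columns left unused numbered 0. From these raw counts, cells were gated as described, with no doublet caller, and summed per library and cell group. The 6 sums were compared with edgeR 4.0.16 (TMM, filterByExpr, robust quasi-likelihood F test, library and cell group as terms, BH adjustment over 7406 genes). Both cell groups of a pair come from the same library, which sets the pairing. The SE is the absolute log2 fold change divided by the square root of F. Days were compared by CPM ratios with exact conditional 95% intervals, and shares of cells after thinning to 5000 UMIs (seed 11), with exact Clopper-Pearson intervals. The pooled mice of a library cannot be separated, so p-values measure the spread between 3 libraries taken at different days. On simulated counts for the comparison of Trbv14 with other-Trbv cells, 61% of genes changed 2-fold and 100% changed 4-fold were called, with 0.173% of unchanged genes, over 7406 genes. Every simulated gene was given the same dispersion. These rates therefore do not cover genes that spread more between libraries, such as those whose RNA a few cells hold. Genes were named by rule: the 12 largest called changes in each direction with the same sign in all 3 libraries, and the 6 largest in each direction between days. Those between days were taken among genes with at least 100 UMIs that at least 10% of the cells of the higher day hold. Both rankings left out gate genes, receptor segments, mitochondrial, ribosomal protein and predicted genes and melanoma and erythroid markers. Up to 5 members of each of 25 lists were named as well. The members, lists and rules were chosen with earlier results of these data known. Alternatives included other gates, TMM against RLE factors, DESeq2 1.42.0, no filter, leaving out each library and leaving out shared barcodes. R 4.3.3, Python 3.11.15, numpy 2.4.6, pandas 2.3.3, scipy 1.17.1 and matplotlib 3.10.9 were used.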

Additional observations from a re-analysis of the deposited data

Results flagged for a closer look

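For 5 genes the summed Trbv14 cells lay on opposite sides of the other-Trbv cells in different libraries, by at least 2-fold on each side. With 1 library per day the difference between days was not tested. Values are log2 ratios of Trbv14 cells over other-Trbv cells, with the share of UMIs held by the leading cell beside them.

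Gzma was at 4.50 on day 3 and -5.75 on day 14. Its leading Trbv14 cell of day 3 held 333 of 2536 UMIs, and on day 14 there were 18 UMIs in Trbv14 cells and 106 in other-Trbv cells, 39 of these in 1 cell. Gzmc was at -2.08 on day 3, 1.77 on day 7 and 2.66 on day 14. Its leading Trbv14 cell of day 7 held 166 of 1412 UMIs, and the leading other-Trbv cell of day 3 held 401 of 1044. Other-Trbv cells of day 14 had 0 Gzmc UMIs, and the last ratio was computed with 3 UMIs in place of that 0.

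The chemokines changed sides as well. Ccl3 was at 2.10 on day 3, -1.06 on day 7 and 1.11 on day 14, and the leading cells held 756 of 2109 UMIs in Trbv14 cells of day 3, 396 of 585 in other-Trbv cells of day 7 and 223 of 574 in Trbv14 cells of day 14. Ccl4 was at 1.38 on day 3 and -1.04 on day 14, with leading cells of 1669 of 2564 UMIs in Trbv14 cells of day 3 and 28 of 119 in other-Trbv cells of day 14. Ccl9 was at -4.28 on day 3 and 2.99 on day 7, with leading cells of 60 of 170 UMIs in Trbv14 cells of day 7 and 44 of 98 in other-Trbv cells of day 3.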

How the results depend on the processing

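Of 146 alternative values for the 11 main counts and shares, 111 stayed within 1.5 times the count or within the interval of the share. The genes that rose (87) and fell (73) in Trbv14 cells numbered 24 and 33 with at least 2 Trbv UMIs required, 618 and 557 against all CD8 cells without Trbv14, 12 and 17 with cells thinned to 5000 UMIs, and 390 and 197 with no filter on low counts. Without the replicate block, that is without pairing the groups by library, they numbered 10 and 21. DESeq2 called 54 that rose. Leaving out 1 library gave 27 (without day 7) to 84 (without day 3) that rose and 23 (without day 7) to 118 (without day 3) that fell. Chosen after seeing the data, leaving out other-Trbv cells with high Trbc2 gave 89 and 82, and leaving out the top cell of each gene 114 and 94.

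Between days, with cells thinned, the higher and lower genes numbered 243 and 538 for day 7 over 3, 313 and 361 for day 14 over 7, and 223 and 380 for day 14 over 3. With a fold of 2 they numbered 488 and 348, 177 and 354, and 381 and 231. With at least 100 UMIs, 529 were higher for day 7 over 3, 279 higher and 415 lower for day 14 over 7, and 341 higher and 449 lower for day 14 over 3. Without shared barcodes 556 were higher for day 7 over 3. Requiring at least 2 UMIs, Trbv14 shares were 78.3%, 95.9% and 95.5% on days 3, 7 and 14.

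A change of sign was counted only where the main or the alternative value passed the call or the size rule. Of 7619 alternative values for 569 single-gene results, 20 changed sign in this way. The cause was not tested. For log2 day 7 over 3 these were Spout1 0.018 and Mki67 -1.41 without shared barcodes, Eomes 3.08, Ccl5 0.40 and Ly6c2 0.63 with at least 2 Trbv UMIs, and Rora -0.0025 and Cdkn1a 0.12 with thinned cells. For log2 day 14 over 7 they were Lta -0.84 without the 5% deepest cells, Hmox1 -0.14 and Hspa1a -0.027 with under 5 UMIs of other lineages, Havcr2 0.13 with thinned cells, Top2a 1.04, Mki67 1.15 and H2-Aa -0.16 without shared barcodes, and H2-Aa -0.099 with at least 2 Trbv UMIs and -0.15 without cells with another Trbv segment. For Trbv14 over other-Trbv cells they were Top2a 0.53 and Mki67 0.51 against all CD8 cells without Trbv14, and, without day 3, Nrgn 0.70 (lowest -0.47, without day 14) and Ccl9 2.67 (lowest -2.18, without day 7). Depth limits low genes: in other-Trbv cells of day 14 the sums hold 353459 UMIs.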
